A study of Mus musculus with 16 samples.

Results

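The 10 genes Dcx, Tubb3, Stmn2, Dpysl3, Map2, Cd24a, Nrxn3, Robo2, Gad1 and Gad2 mark migrating neuroblasts and young GABAergic neurons, and they were taken by symbol from both expression tables. All 10 were found among 24946 genes in each table, and all 10 passed the filter of a mean value of at least 10 in both. The cultures were neural stem cells (NSCs) of the mouse ventricular-subventricular zone (V-SVZ), the germinal layer beside the lateral ventricle. Each of 4 Tsc2 mutant cultures (mut/mut) and 4 wild-type cultures (wt/wt) gave 1 library of total RNA and 1 library of polyribosomal RNA, the mRNA loaded with several ribosomes and collected by density from a sucrose gradient, so there were 4 groups of 4. Tsc2 encodes tuberin, which holds back the growth-promoting kinase complex mTORC1.

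Mutant cultures carried the conditional Tsc2 allele Tsc2tm1.1Mjg, a CRE-ERT2 recombinase driven by the Nestin promoter and a tdTomato reporter that CRE switches on. Neonatal pups of both genotypes received tamoxifen, which activates CRE-ERT2, a week before the brains were taken. The labels do not say if pups of the wild-type group had the recombinase. The cells were grown with EGF and basic FGF, passaged once, and treated with cycloheximide, which holds ribosomes on mRNA, before lysis. These are thus growth conditions of stem cells and not of neurons, and the deletion was limited to cells that expressed Nestin and to their offspring. Replicates were numbered cultures, and nothing in the labels ties a culture to an animal, litter or sex, so each p-value is relative to variation among cultures only.

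In the postnatal V-SVZ, NSCs give rise to transit amplifying cells and these to neuroblasts, which migrate along the rostral migratory stream to the olfactory bulb and become mostly GABAergic interneurons. Neuroblasts rebuild their microtubules as they move, so several of their markers are tubulins or proteins that bind tubulin. Others are surface molecules for guidance and adhesion, or enzymes that make GABA. Several of these genes are not restricted to neurons, and progenitors and glia can carry their transcripts.

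The values were normalized read counts per gene, and the table of each RNA fraction was normalized on its own. Estimated depth was 24.7 to 139 M reads (M, 1e+06) in total RNA libraries and 52.1 to 266 M in polyribosomal libraries. The least read value among the 10 genes rested on about 12 reads, for Gad2 in total RNA of wild-type culture 2. NSC markers (10 of 10 above the filter) averaged 15.2 to 15.3 log2 units in mutant and 15.0 to 15.3 in wild-type total RNA, whereas 12 genes of mature neurons averaged 5.30 to 6.20 in mutant and 5.12 to 5.61 in wild-type. In the marker lists of other cell types, 4 of 5 tested markers for oligodendrocyte precursors, 7 of 7 for myelinating oligodendrocytes and 5 of 8 for astrocytes were higher in mutant total RNA (adjusted p under 0.05, limma). So were 2 of 4 for choroid plexus, and 3 of 8 for transit amplifying and cycling cells were lower. By the same measure 19.7% of all genes were higher and 20.7% lower. Among 10 NSC markers 2 were higher and 1 lower, and among 9 microglia markers 1 was higher and 0 lower. No marker of these lists was at 0 in every library. Choroid plexus markers (6 genes, medians of 1.49 in total and 2.66 in polyribosomal RNA over the 4 tested) averaged 5.15, 3.82, 6.53 and 5.10 log2 units in mutant cultures 1 to 4, against 3.48, 3.66, 3.21 and 3.26 in wild-type cultures 1 to 4. Microglia markers averaged 7.05, 8.94, 6.61 and 8.18 log2 units in mutant cultures 1 to 4, against 6.95, 7.16, 6.59 and 7.28 in wild-type cultures 1 to 4. Y-linked genes averaged 10.1, 3.71, 2.22 and 1.00 in mutant and 9.92, 10.2, 10.4 and 5.94 in wild-type cultures, so Y-linked transcripts were not balanced between the genotypes. In bulk RNA, fewer cells of a type and less RNA per cell cannot be told apart.

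Comparing mutant with wild-type total RNA asked whether the abundance of these transcripts differed by genotype. Stmn2, Gad1 and Nrxn3 were called higher in mutant cultures, by 2.63, 1.41 and 1.34 on the log2 scale, and no gene of the 10 was called lower. Gad2, Cd24a, Map2 and Dpysl3 had negative changes that were not called. Called means an adjusted p under 0.05, and this made 3 of 10 called in either direction, where 40.3% of all 14967 genes tested were called. By direction, 19.7% of all genes were called higher and 20.7% lower. For those 3 genes every mutant culture lay above every wild-type culture, and for none below. Of all genes 17.8% lay wholly above and 20.3% wholly below, 38.1% in either direction. The median change of the 10 genes was 0.32, against 0.01 over all genes. In polyribosomal RNA Stmn2, Gad1, Dcx and Nrxn3 were higher and Dpysl3 was lower, 5 of 10 where 23.6% of 14412 genes were called. There 11.7% of all genes were called higher and 11.9% lower, and the median change was 0.45, against 0.01 over all genes. The mutant cultures lay wholly above the wild-type cultures for Stmn2, Gad1 and Nrxn3 and wholly below for none of the 10. Of all genes in that fraction 13.3% lay above and 14.6% below, 27.9% in either direction. The number of all genes called in polyribosomal RNA, 3403, was 1888 to 2149 without mutant culture 1 or 3 or wild-type culture 1, 2 or 3.

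To show the sequence before the start of some of the genes, RefSeq promoters (build GRCm38.p6) were matched by symbol for 7 of the 10 genes and not for Stmn2, Cd24a or Dpysl3. From the 250 bases before a start, the stretch ahead of the first annotated exon base is printed 5′ to 3′ on the strand of the gene, for Gad1 and Nrxn3, which were higher, for Gad2, which was not, and for Dcx, with a TATA box motif (TATAAA or its reverse complement) in capitals. They are Gad1 at chr2:70561879-70562041 (plus strand), Gad2 at chr2:22622077-22622204 (plus strand), the third listed start of Nrxn3 at chr12:89812233-89812482 (plus strand) and the first of Dcx at chrX:143933312-143933469 (minus strand).
Gad1: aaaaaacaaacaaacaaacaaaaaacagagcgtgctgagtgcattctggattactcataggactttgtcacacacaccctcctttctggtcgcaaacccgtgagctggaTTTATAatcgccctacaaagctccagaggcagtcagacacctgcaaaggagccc
Gad2: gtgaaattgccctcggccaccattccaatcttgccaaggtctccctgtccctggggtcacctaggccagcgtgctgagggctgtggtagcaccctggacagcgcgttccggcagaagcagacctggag
Nrxn3: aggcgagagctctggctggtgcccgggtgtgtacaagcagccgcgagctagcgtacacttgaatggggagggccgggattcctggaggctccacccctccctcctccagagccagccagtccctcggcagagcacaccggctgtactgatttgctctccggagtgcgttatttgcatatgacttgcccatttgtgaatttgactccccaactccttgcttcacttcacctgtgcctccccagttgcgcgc
Dcx: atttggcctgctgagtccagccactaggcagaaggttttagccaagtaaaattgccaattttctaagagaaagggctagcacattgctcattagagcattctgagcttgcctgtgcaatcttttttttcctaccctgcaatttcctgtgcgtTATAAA
Each whole window was searched on both strands for 5 motifs, none of which holds another: TATAAA, the GC box GGCGGG, the E-box CAGCTG, the homeodomain core TAATTA and the SOX core AACAAT. The TATA motif was found in the windows of Gad1 and Dcx, and 12.4% of 32851 RefSeq windows of that length hold it. TAATTA was found at Dcx (4.84% of windows) and GGCGGG at Gad1, Tubb3 and Map2 (32.5%), with 2 copies at Gad1 and 5 at Map2. CAGCTG was found at 1 of 3 starts of Robo2 (13% of windows) and AACAAT at none (9.42%). The window of Gad2 and the 3 windows of Nrxn3 held none of the 5 motifs. A match is a string of letters and not a site.

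**Figure D1:**
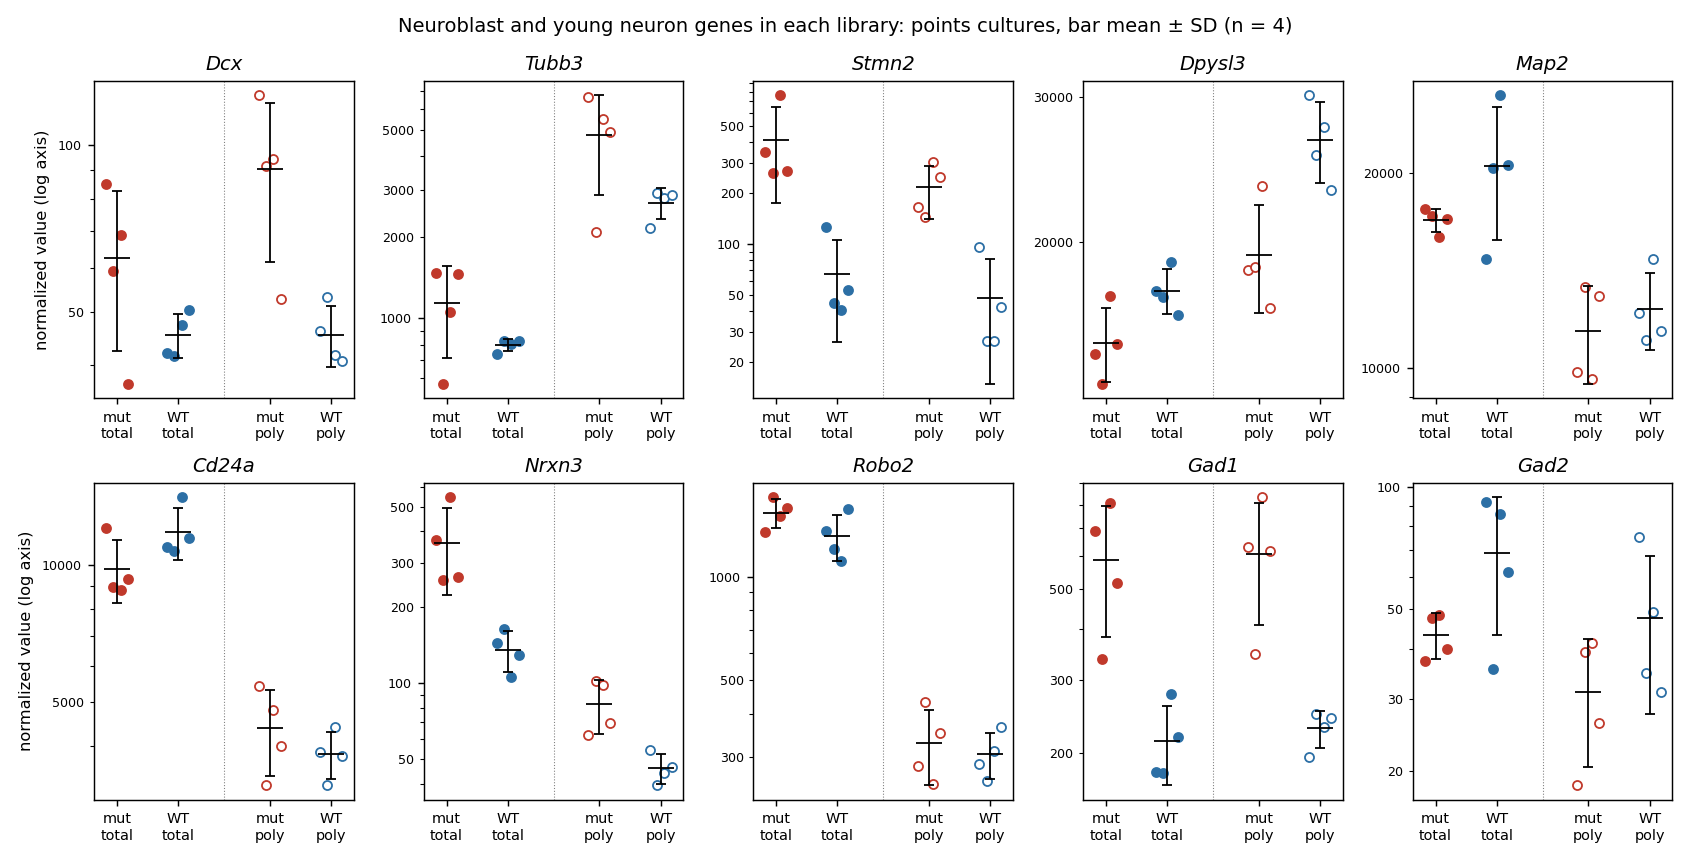
Normalized values (vertical log axes) of the 10 genes in each library, mutant (red) left of wild-type (blue), total RNA as filled and polyribosomal RNA as open points, with bars for the mean ± SD of 4 cultures. Stmn2, Nrxn3 and Gad1 did not overlap between genotypes in either fraction, whereas for Tubb3 mutant culture 2 lay below and the other 3 mutant cultures lay above the wild-type cultures.

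Among the microtubule genes, Stmn2 changed most. Stmn2 (stathmin 2, also SCG10) is a growth cone protein that binds tubulin and loosens microtubules, and its gene lies at chr3:8509360-8561606 of GRCm38. In total RNA it stood at 352, 264, 759.5 and 270.4 in mutant cultures 1 to 4, against 126, 44.7, 40.7 and 53.6 in wild-type cultures 1 to 4. The lowest mutant culture was above the highest wild-type culture, and the change was 2.63 ± 0.41 (SE), a 6.18-fold difference with an adjusted p of 0.00297 by limma. In polyribosomal RNA it stood at 166, 144, 307 and 249 in mutant and at 96.5, 26.6, 26.6 and 42.4 in wild-type cultures. The groups again did not overlap, with a change of 2.29 ± 0.39 and an adjusted p of 0.00400 by limma. Wild-type culture 1 was the highest of its group in both fractions. With the Y-linked level of each culture as a covariate the adjusted p was 0.0445 in total and 0.0932 in polyribosomal RNA.

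Dcx encodes doublecortin, a microtubule-binding protein that is the usual marker of migrating neuroblasts (chrX:143855842-143933311). In total RNA it was the least abundant of the 10 per kilobase of exon. In total RNA Dcx stood at 84.9, 59.3, 68.9 and 37.1 in mutant and at 42.1, 41.7, 47.3 and 50.3 in wild-type cultures. Mutant cultures 1 to 3 were above all wild-type cultures and mutant culture 4 was below them, and the change of 0.40 ± 0.26 did not pass the test (adjusted p = 0.241, limma). In polyribosomal RNA it stood at 123, 91.6, 94.6 and 52.6 in mutant and at 46.1, 53.3, 41.7 and 40.8 in wild-type cultures. There Dcx was 0.92 ± 0.27 higher (adjusted p = 0.0304, limma), with mutant culture 4 just inside the wild-type range. Of the 8 fits that left out 1 culture, the call was kept without mutant culture 2 or 4, and without any of the other 6 cultures the change was 0.75 to 1.00 with adjusted p of 0.0532 to 0.0929 (limma). The doublecortin-like kinases Dclk1 and Dclk2, its tested kin, made no call by limma in either fraction, with 1 of 2 at an unadjusted p under 0.05 in each.

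The genes whose pattern over the 16 libraries was most like that of Dcx, among 12541 searched, were Sox10 (Pearson r = 0.90), Smim19 (0.89), Nckap5 (0.89), Pdgfra (0.88) and Meis3 (0.88). These r describe libraries that share cultures and genotype, and each value is relative to the mean of its own table. Sox10 and Pdgfra belong to the list of oligodendrocyte precursor markers. Its 6 genes averaged 9.20, 8.52, 9.22 and 8.38 log2 units in mutant total RNA, against 7.75, 8.14, 8.04 and 8.02 in wild-type, and 8.73, 8.26, 8.56 and 7.65 in mutant polyribosomal RNA, against 7.34, 7.48, 7.63 and 7.54 in wild-type. Their summed level was 6656 to 12488 in mutant and 4689 to 5832 in wild-type total RNA, with none at 0 throughout. Mutant culture 4 had the lowest level of the mutant cultures for this list as for Dcx, and the part of these cells in the Dcx result was not tested. Dcx did not follow Stmn2 or Tubb3 within the groups, where r over 16 libraries was 0.0032 and 0.038 after removing group means.

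Tubb3 (chr8:123411424-123422015) encodes the class III beta-tubulin by which young neurons are stained. In total RNA Tubb3 stood at 1474, 572, 1057 and 1458 in mutant and at 736, 825, 805 and 822 in wild-type cultures. The wild-type cultures lay close together, while 3 mutant cultures were above them and mutant culture 2 was below, and the change was 0.42 ± 0.26 (adjusted p = 0.210, limma). In polyribosomal RNA it stood at 6662, 2100.1, 5506 and 4948 in mutant and at 2167, 2923, 2797 and 2875 in wild-type cultures, with a change of 0.73 ± 0.30 (adjusted p = 0.104). Without mutant culture 2 the change was 0.72 (adjusted p = 0.00285) in total and 1.08 (adjusted p = 0.00109) in polyribosomal RNA, both by limma. Leaving out the lowest mutant culture had to raise the change. No other fit without 1 culture called Tubb3 in either fraction, with adjusted p up to 0.455 in total and 0.233 in polyribosomal RNA (limma). Mutant culture 2 also had the highest microglia markers of the 8 cultures, at 8.94 log2 units in total RNA. Mutant culture 4 came next, at 8.18, and its Tubb3 value lay above all wild-type cultures. The part of microglia in the Tubb3 values was not tested. Within groups Tubb3 went with Gad1 (r = 0.76 over 16 libraries), which was lowest in the same mutant culture.

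Of 5 other tubulin genes of neural cells, Tubb4a was higher by 1.28 ± 0.14 (adjusted p = 0.00131) and Tubb5 lower by 0.54 on the log2 scale (adjusted p = 0.0244) in mutant total RNA, and the other 3 were not called. The same was found in polyribosomal RNA, where Tubb4a was at 1.11 ± 0.18 and Tubb5 at -0.45 ± 0.11. Tubb4a is a tubulin abundant in oligodendrocytes and Tubb5 one of the common tubulins of dividing cells. Of the 3 other stathmins, Stmn4 was higher in both fractions, by 1.11 ± 0.39 (adjusted p = 0.0426) in total and 1.74 ± 0.46 (adjusted p = 0.0248) in polyribosomal RNA. Stmn1, the stathmin of dividing progenitors, was at -0.23 ± 0.12 in total RNA, and neither it nor Stmn3 was called. Stmn2 remained a small part of the stathmin values: 1.29, 0.938, 3.36 and 0.929% of the sum of Stmn1 to Stmn4 in mutant total RNA, against 0.390, 0.143, 0.141 and 0.196% in wild-type.

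Dpysl3 (chr18:43320984-43438286) encodes CRMP4, a collapsin response mediator protein that links guidance signals to the growth cone cytoskeleton, and Map2 (chr1:66175273-66442583) encodes a microtubule-binding protein of dendrites. Both were abundant. In total RNA Dpysl3 stood at 14627, 13484, 17233 and 15039 in mutant and at 17478, 17158, 18912 and 16326 in wild-type cultures, a change of -0.21 ± 0.09 that was not called (adjusted p = 0.0850, limma). In polyribosomal RNA it stood at 18506, 18646, 23384 and 16642 in mutant and at 30104, 25477, 27531 and 23132 in wild-type cultures. Dpysl3 was lower there by 0.47 on the log2 scale (adjusted p = 0.0268, limma), with only mutant culture 3 above the lowest wild-type culture. That call was lost without mutant culture 1 or wild-type culture 1, 2 or 3, at changes of -0.48 to -0.40 and adjusted p of 0.0593 to 0.0740, and without mutant culture 3 total RNA was called too (-0.28, adjusted p = 0.0278, limma). Mutant culture 3 was the highest mutant culture, so leaving it out had to widen that change. No other fit without 1 culture called Dpysl3 in total RNA.

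No kin of Dpysl3 was called lower. Dpysl2 and Dpysl4, 2 of the 4 other CRMP genes, were higher in both fractions, Dpysl2 by 0.46 ± 0.14 in total and 0.93 ± 0.18 in polyribosomal RNA and Dpysl4 by 0.65 ± 0.14 and 0.64 ± 0.21, while Crmp1 and Dpysl5 were not called. Dpysl3 made up 65.4, 70.8, 72.5 and 73.3% of the summed values of the 5 CRMP genes in mutant total RNA, against 78.4, 79.7, 74.1 and 76.1% in wild-type. In polyribosomal RNA its part was 40.8, 52.9, 49.1 and 53.0% in mutant and 69.0, 65.8, 56.5 and 58.4% in wild-type cultures. The groups did not overlap in either fraction. These shares lie within a library, so no scaling factor enters them, and they were computed after the values had been seen and were not tested.

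Map2 stood at 17613, 17152, 15924 and 16979 in mutant and at 14744, 20374, 26411 and 20637 in wild-type total RNA. The mutant cultures were alike and the wild-type cultures were spread around them, with a change of -0.25 ± 0.15 (adjusted p = 0.196, limma) that was called without wild-type culture 1 (-0.40, adjusted p = 0.0188). Wild-type culture 1 was the lowest of its group, so leaving it out had to widen the change. No other fit without 1 culture called Map2 in total RNA. In polyribosomal RNA the range was 9604 to 13319 in mutant and 11032 to 14745 in wild-type cultures, and the change was -0.12 ± 0.15 (adjusted p = 0.584). Of 5 other microtubule-associated genes, Map1a, whose protein binds dendritic microtubules, and Mapt, which encodes tau, were higher in total RNA by 1.03 ± 0.16 (adjusted p = 0.00283) and 1.21 ± 0.33 (adjusted p = 0.0169). None of the 5 was called in polyribosomal RNA by limma, with 1 at an unadjusted p under 0.05. The annotation places 124 exon bases of Map2 under the antisense gene Gm10558, and the libraries were made without strand information, so a part of the Map2 reads cannot be assigned with certainty.

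**Figure D2:**
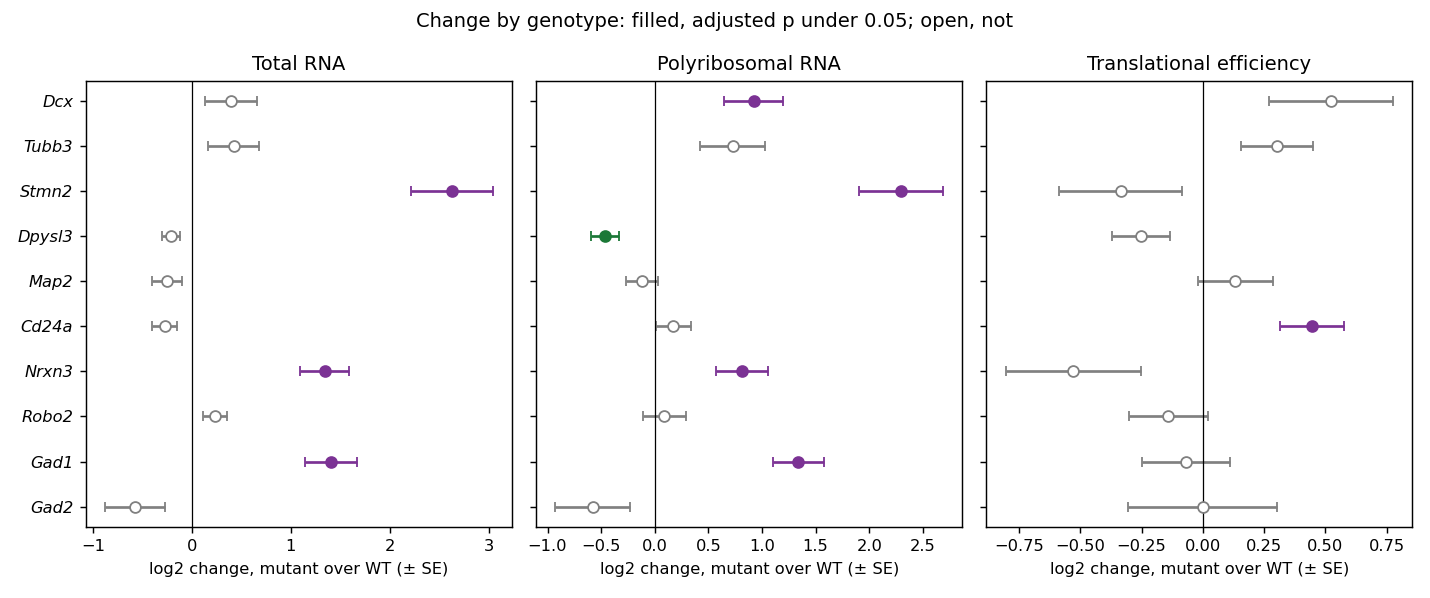
Log2 change of mutant over wild-type (horizontal axes, ± SE) of the 10 genes in total RNA, polyribosomal RNA and translational efficiency, filled where the adjusted p was under 0.05 (purple higher, green lower in mutant). Stmn2, Nrxn3 and Gad1 were called in both fractions, Dcx and Dpysl3 in polyribosomal RNA, and Cd24a alone of the 10 in translational efficiency.

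Among the surface genes, Nrxn3 was the one called in the levels of both RNA fractions. Nrxn3 (chr12:88722876-90334935) encodes neurexin 3, a presynaptic adhesion protein. In total RNA it stood at 369, 256, 546 and 264 in mutant and at 144, 165, 106 and 129 in wild-type cultures. The groups did not overlap, and the change was 1.34 ± 0.25 (adjusted p = 0.00437, limma), called in all 8 fits without 1 culture. In polyribosomal RNA Nrxn3 stood at 62.3, 102, 97.9 and 69.7 in mutant and at 54.4, 39.4, 43.9 and 46.7 in wild-type cultures. The change there was 0.81 ± 0.24 (adjusted p = 0.0319, limma). It was not called without mutant culture 2 or 3 or wild-type culture 2, 3 or 4, at 0.70 to 0.82 with adjusted p of 0.0564 to 0.0926. Another transcript on the opposite strand, Gm37980, covers 439 of the exon bases of Nrxn3.

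Among related genes, the neurexin gene Nrxn2 and the neuroligin genes Nlgn2 and Nlgn3, which encode postsynaptic partners of neurexins, were called higher in total RNA. Nrxn2 was at 1.00 ± 0.15 (adjusted p = 0.00283), Nlgn2 at 0.70 ± 0.18 (adjusted p = 0.0149) and Nlgn3 at 0.49 ± 0.11 (adjusted p = 0.00917). In polyribosomal RNA Nrxn2 was at 0.07 ± 0.21 (adjusted p = 0.830), Nlgn2 at -0.16 ± 0.22 (adjusted p = 0.630) and Nlgn3 at 0.03 ± 0.20 (adjusted p = 0.931). Translational efficiency was lower for Nrxn2, by 0.93 on the log2 scale (adjusted p = 0.0116), and for Nlgn2, by 0.86 (adjusted p = 0.00789). Nrxn3 itself was at -0.53 ± 0.28 in that test (adjusted p = 0.209).

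Robo2 (chr16:73891839-74411825) encodes a receptor for Slit proteins, which steer neuroblasts. In total RNA it stood at 1347, 1702, 1497 and 1579 in mutant and at 1356, 1202, 1113 and 1570.0 in wild-type cultures. The groups overlapped, and the change of 0.23 ± 0.12 was not called (adjusted p = 0.153, limma). In polyribosomal RNA the values were 249 to 432 in mutant and 255 to 365 in wild-type cultures, with a change of 0.09 ± 0.20 (adjusted p = 0.774) whose sign turned without mutant culture 2 (-0.05). The 95% interval was -0.04 to 0.51 in total and -0.35 to 0.53 in polyribosomal RNA.

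Of 8 tested Slit ligands, other Robo receptors and their partners, 5 were called higher in total RNA and none was called lower, with a median of 0.57 against 0.01 over all genes. There 19.7% of all genes were called higher and 20.7% lower. Slit3 had the widest change, at 155, 29.0, 384 and 51.8 in mutant and at 8.09, 11.9, 2.51 and 9.89 in wild-type cultures, or 3.59 ± 0.74 (adjusted p = 0.00582). Slit2 was higher by 1.47 ± 0.29 (adjusted p = 0.00516), the receptor Robo1 by 0.63 ± 0.11 (adjusted p = 0.00330) and Srgap1, a GTPase-activating protein downstream of Robo receptors, by 0.69 ± 0.12 (adjusted p = 0.00370). In polyribosomal RNA Slit3 and Slit2 were higher and Slit1 was lower, by 0.79 on the log2 scale (adjusted p = 0.0272).

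Cd24a (chr10:43578284-43584265) encodes a small lipid-anchored glycoprotein that is used to sort neuroblasts and is also present on ependymal cells. In total RNA it was the most abundant of the 10 per kilobase of exon. In total RNA Cd24a stood at 12102, 8971, 8812 and 9325 in mutant and at 10970.4, 10769, 14119.5 and 11464 in wild-type cultures. Mutant cultures 2 to 4 were below all wild-type cultures and mutant culture 1 was among them, and the change was -0.27 ± 0.12 (adjusted p = 0.10, limma), or -0.38 without mutant culture 1 (adjusted p = 0.0334). Leaving out the highest mutant culture had to widen the change, and no other fit without 1 culture called Cd24a in total RNA. In polyribosomal RNA it stood at 5431, 3281, 4794 and 3998 in mutant and at 3874, 3277, 4398 and 3803 in wild-type cultures, with a change of 0.17 ± 0.16 (adjusted p = 0.466). Ependymal markers were called higher in 2 of 5 tested genes and called lower in none, in both fractions. The share of all genes called higher was 19.7% in total and 11.7% in polyribosomal RNA. The summed level of the ependymal markers was 5799 to 6707 in mutant and 4951 to 6153 in wild-type total RNA, and their part in the Cd24a values was not tested.

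Gad1 and Gad2 encode GAD67 and GAD65, the larger and smaller forms of glutamate decarboxylase, which makes GABA from glutamate. Both genes lie on chromosome 2, Gad1 at chr2:70553072-70602014 and Gad2 at chr2:22622205-22693874, and Gad1 was called higher while Gad2 was not called. In total RNA Gad1 stood at 691, 338, 808 and 516 in mutant and at 179.5, 179, 278 and 218 in wild-type cultures. The groups did not overlap, and Gad1 (its promoter is printed above beside that of Gad2) was higher by 1.41 ± 0.26, or 2.65-fold (adjusted p = 0.00441, limma). In polyribosomal RNA it stood at 633, 347, 834 and 617 in mutant and at 196, 249, 231 and 243 in wild-type cultures, a change of 1.34 ± 0.24 (adjusted p = 0.00438). Both calls were kept in all 8 fits without 1 culture, and with the Y-linked covariate the adjusted p was 0.0461 in total and 0.0941 in polyribosomal RNA.

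Gad2 in total RNA stood at 37.2, 47.5, 48.5 and 40.0 in mutant and at 92.0, 35.7, 85.6 and 61.8 in wild-type cultures. Wild-type culture 2 was the lowest of all 8 and the other 3 wild-type cultures the highest, and the change was -0.58 ± 0.30 (adjusted p = 0.145, limma), or -0.86 without wild-type culture 2 (adjusted p = 0.0273). Leaving out the lowest wild-type culture had to widen the change, and no other fit without 1 culture called Gad2 in total RNA. In polyribosomal RNA Gad2 stood at 18.4, 39.2, 41.3 and 26.2 in mutant and at 75.4, 34.9, 49.2 and 31.2 in wild-type cultures, also a change of -0.58, with an SE of 0.35 (adjusted p = 0.244). Within a library the ratio of Gad1 to Gad2 was 18.6, 7.11, 16.7 and 12.9 in mutant and 1.95, 5.01, 3.25 and 3.53 in wild-type total RNA. In polyribosomal RNA the ratio was 34.3, 8.87, 20.2 and 23.5 in mutant and 2.60, 7.13, 4.69 and 7.76 in wild-type cultures. Every mutant ratio was above every wild-type ratio of its fraction, a description made after the values had been seen, with no test.

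**Figure D3:**
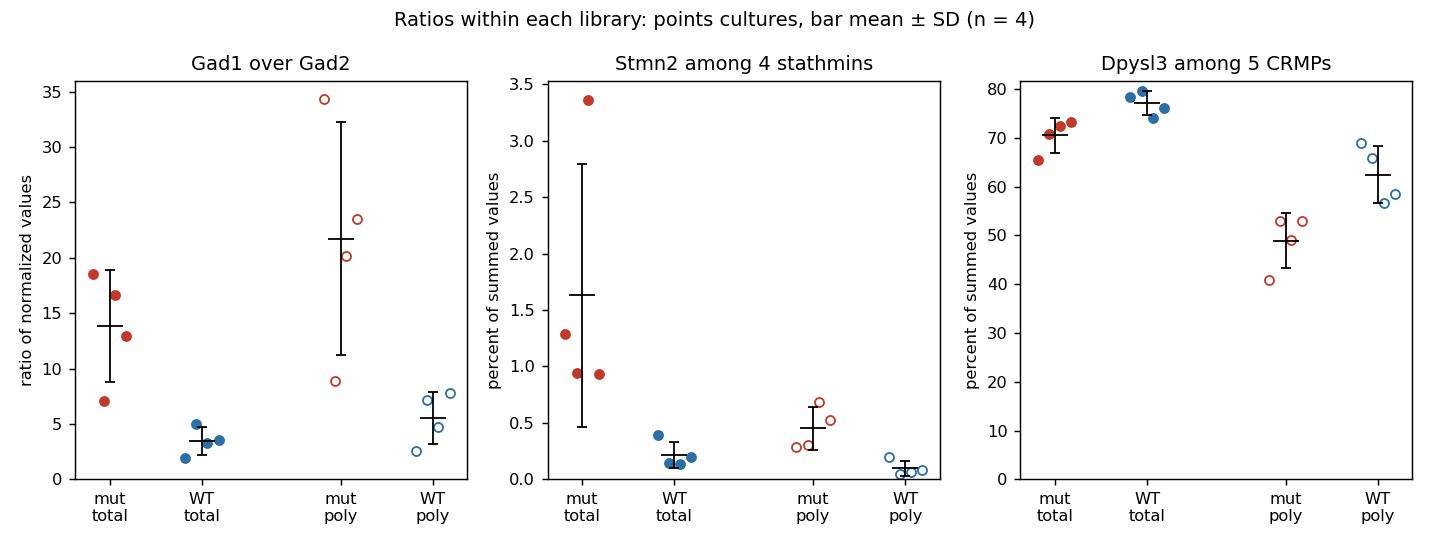
Ratios within each library (vertical axes from 0), mutant (red) left of wild-type (blue), total RNA filled and polyribosomal RNA open, with bars for the mean ± SD of 4 cultures. The ratio of Gad1 to Gad2 was 7.11 to 18.6 in mutant and 1.95 to 5.01 in wild-type total RNA, the percent of stathmin values from Stmn2 was higher and the percent of CRMP values from Dpysl3 lower in mutant, and none of the 3 overlapped within a fraction.

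Of the other genes of GABA handling, Abat, which encodes the transaminase that breaks GABA down, was higher by 1.25 ± 0.15 in total RNA (adjusted p = 0.00214) and by 0.91 ± 0.18 in polyribosomal RNA (adjusted p = 0.00560). Slc32a1, which loads GABA into vesicles and defines neurons that release it, was under the filter, at 5.54, 2.07, 22.3 and 5.19 in mutant and at 1.00, 0, 0 and 2.57 in wild-type total RNA.

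Translational efficiency was tested as the interaction of genotype and RNA fraction over 16 libraries with culture as a block, to ask whether polyribosomal RNA changed beyond total RNA. Of the 10 genes, 1 was called, where 13% of 14333 genes were called, 5.07% higher and 7.89% lower. That background of 1858 genes was 647 to 1227 without mutant culture 1 or 3 or wild-type culture 2 or 3, and 3282 without wild-type culture 1. The median of the 10 was -0.03, against 0.01 over all genes. Cd24a was higher by 0.45 ± 0.13 (adjusted p = 0.0333, limma), with changes of 0.17 in polyribosomal and -0.27 in total RNA. Relative to the median gene of the same culture, the log2 ratio of polyribosomal to total values for Cd24a was -0.96, -1.27, -0.65 and -0.97 in mutant and -1.27, -1.55, -1.52 and -1.40 in wild-type cultures. The mutant cultures lay above the wild-type cultures, with mutant culture 2 and wild-type culture 1 next to each other, and the call was lost without mutant culture 1 or 3 or wild-type culture 2, 3 or 4, at 0.35 to 0.46 with adjusted p of 0.0596 to 0.111 (limma). Without the culture block no gene of the 10 and none of all genes was called by limma, with 0 and 2221 at an unadjusted p under 0.05, and the adjusted p of Cd24a was 0.324 (range over 18 alternatives 0.0114 to 0.324).

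Relative to the median gene, Dcx and Tubb3 also had higher ratios in every mutant culture than in every wild-type culture, and neither passed the test. For Dcx the log2 ratio relative to the median gene was 0.73, 0.80, 0.68 and 0.74 in mutant and 0.36, 0.51, -0.01 and -0.10 in wild-type cultures, and the fitted difference was 0.52 ± 0.25 (adjusted p = 0.178). For Tubb3 it was 2.37, 2.06, 2.61 and 2.01 in mutant and 1.79, 1.99, 1.96 and 2.00 in wild-type cultures, with a difference of 0.30 ± 0.15 (adjusted p = 0.174). For Dpysl3 the mutant ratios, 0.39 to 0.67, lay below the wild-type ratios, 0.70 to 1.01, with a difference of -0.25 ± 0.12 (adjusted p = 0.165). With Cd24a, 3 of the 10 thus lay wholly above and 1 wholly below on this scale, and the remaining 6 genes overlapped between genotypes. Over all genes 8.16% lay above, 10.8% below and 19% in either direction, but on ratios without the median gene subtracted. On those ratios Tubb3 overlapped between genotypes, while Dcx and Cd24a lay above and Dpysl3 below. The fitted difference of Gad1 was -0.07 ± 0.18.

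The 10 genes also differed widely among themselves in this ratio, on a scale where 0 is the median gene of a culture. Tubb3 averaged 2.26 ± 0.28 in mutant and 1.93 ± 0.10 in wild-type cultures (SD, n = 4 each), at the 99.9th and 99.6th percentile of all genes. At the other end Robo2 averaged -2.03 ± 0.24 in mutant and -1.92 ± 0.18 in wild-type cultures, and Nrxn3 -1.85 ± 0.56 and -1.34 ± 0.36. Cd24a was at -0.96 ± 0.25 in mutant and -1.44 ± 0.13 in wild-type, and Stmn2, Map2, Gad1 and Gad2 averaged between -0.63 and 0.31 in both genotypes. The ratio says how much of an mRNA was recovered with polyribosomes, and ribosomes were not counted per transcript.

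**Figure D4:**
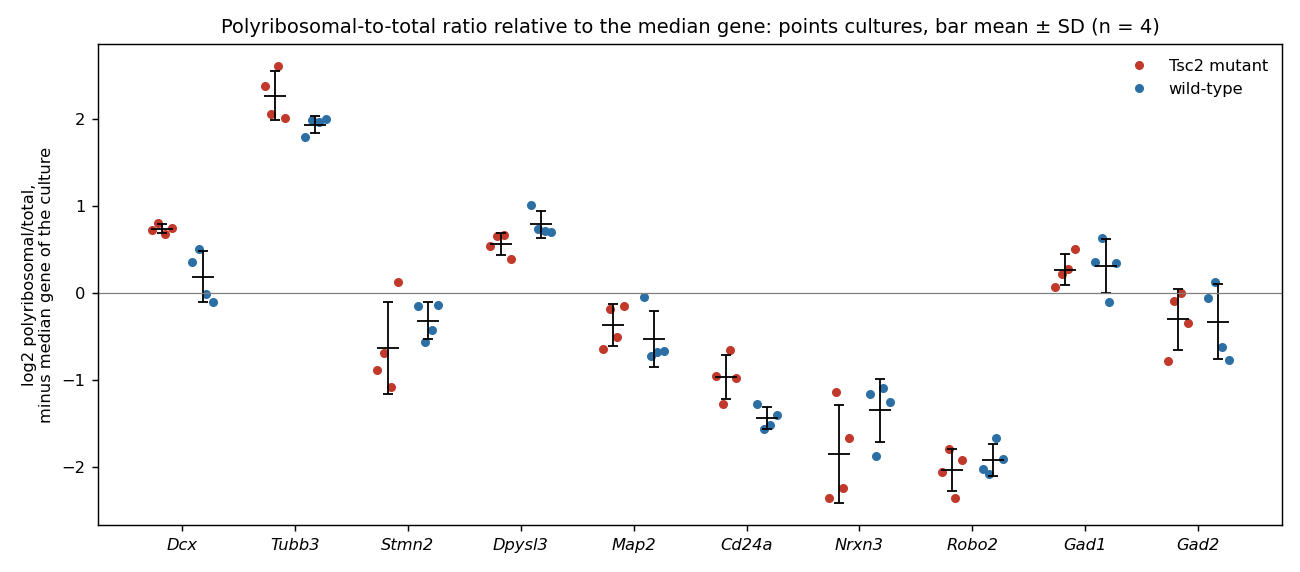
Log2 ratio of polyribosomal to total values minus that of the median gene of the same culture (vertical axis) for each gene, mutant (red) left of wild-type (blue), with points for cultures and bars for the mean ± SD of 4. Tubb3 lies near 2 and Robo2 near -2 in both genotypes, and Dcx and Tubb3 lie higher and Dpysl3 lower in every mutant culture than in every wild-type culture.

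Levels per kilobase of exon in total RNA put the genes in nearly the same order in both genotypes. In mutant total RNA the order was Cd24a (3799 ± 599.9, SD, n = 4), Dpysl3 (2284.5 ± 238), Map2 (1028.5 ± 43.4), Tubb3 (611 ± 228), Robo2 (90.2 ± 8.75), Gad1 (77.0 ± 26.9), Stmn2 (73.5 ± 42.0), Nrxn3 (28.5 ± 10.7), Gad2 (7.37 ± 0.946) and Dcx (4.94 ± 1.58). Robo2, Gad1 and Stmn2 did not differ beyond their spread there. In wild-type total RNA it was Cd24a (4586 ± 602), Dpysl3 (2644 ± 163), Map2 (1249 ± 290), Tubb3 (427 ± 22.3), Robo2 (77.1 ± 11.8), Gad1 (28.0 ± 6.11), Stmn2 (11.8 ± 7.14), Gad2 (11.7 ± 4.36), Nrxn3 (10.8 ± 1.96) and Dcx (3.59 ± 0.330). Stmn2, Gad2 and Nrxn3 could not be ordered in wild-type, and in mutant Stmn2 and Nrxn3 both stood above Gad2. In polyribosomal RNA Dpysl3 was the most abundant per kilobase, at 2919.9 ± 435 in mutant and 4019.5 ± 449 in wild-type cultures, above Cd24a at 1696 ± 363 and 1488 ± 178. The lowest level there was that of Gad2 in mutant (5.32 ± 1.85), near Nrxn3 (6.58 ± 1.58) and Dcx (7.15 ± 2.29), and in wild-type Dcx (3.60 ± 0.449) and Nrxn3 (3.66 ± 0.501) were level. Against 14818 genes ranked per kilobase in wild-type total RNA, Cd24a was at the 93.9th percentile, Tubb3 at the 56.6th and Dcx at the 3.85th, so doublecortin mRNA was near the bottom of the genes ranked in total RNA.

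Beyond close kin, 23 other neuroblast genes were listed and 19 tested, and their direction was mixed. In total RNA 4 were higher and 7 lower, with a median change of -0.33 against 0.01 over all genes. There 19.7% of all genes were called higher and 20.7% lower, so the 4 higher genes were near that share. St8sia2, which adds polysialic acid to NCAM on migrating cells, was higher by 1.33 ± 0.25 (adjusted p = 0.00461), Sox4 by 0.57 ± 0.09 (adjusted p = 0.00313) and Ncam1 by 0.45 ± 0.09 (adjusted p = 0.00554). None of these 3 was called in polyribosomal RNA by limma, where St8sia2 was at 0.66 ± 0.23 (adjusted p = 0.0561), Sox4 at 0.10 ± 0.16 and Ncam1 at -0.03 ± 0.14. Elavl3, which encodes an RNA-binding protein of neurons, was higher in both fractions, by 0.67 ± 0.17 in total (adjusted p = 0.0137) and 0.53 ± 0.17 in polyribosomal RNA (adjusted p = 0.0379). Dlx2, a homeobox gene of GABAergic progenitors, was lower by 0.93 on the log2 scale (adjusted p = 0.00545), at 128, 105, 89.6 and 143 in mutant and at 249, 245, 207 and 186 in wild-type cultures. Dlx2 was also lower in polyribosomal RNA, by 1.29 (adjusted p = 0.00148), where Elavl3 was the 1 gene of the list called higher and 7 were lower. In that fraction 11.7% of all genes were called higher and 11.9% lower. Dlx5 and Dlx6, homeobox genes of later GABAergic neurons, stood below 10 in every library.

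Over close kin and other neuroblast genes together (62 listed, 54 tested), 22 were higher and 8 lower in total RNA, a median of 0.25, and 10 were higher and 9 lower in polyribosomal RNA, a median of 0.05. The shares over all genes were 19.7% higher and 20.7% lower in total RNA, and 11.7% and 11.9% in polyribosomal RNA. Of 9 tested genes of mature neurons, Syn1, a synaptic vesicle protein, was the only one called, at 0.64 ± 0.23 in total RNA (adjusted p = 0.0459), and none was called in polyribosomal RNA by limma, with 1 at an unadjusted p under 0.05. Rbfox3, which encodes the neuronal nuclear marker NeuN, was at 0.40 ± 0.50 (adjusted p = 0.532).

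**Figure D5:**
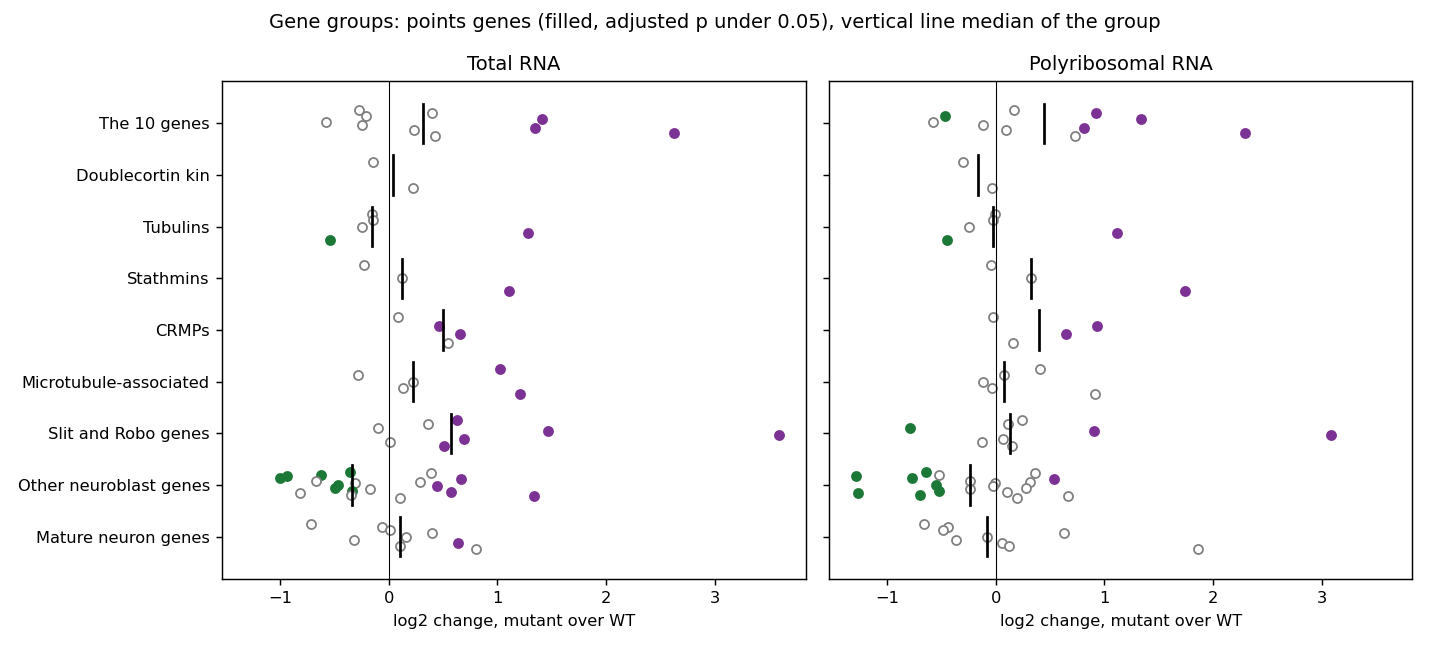
Log2 change of mutant over wild-type (horizontal axes) of the 10 genes, groups of kin and other neuronal genes in total and polyribosomal RNA, with points for genes (filled where the adjusted p was under 0.05, purple higher and green lower) and a vertical line for the median of each group. Of the Slit and Robo genes 5 of 8 are called higher in total RNA (19.7% of all genes). Of the other neuroblast genes 7 of 19 are called lower in each fraction (20.7% of all genes in total and 11.9% in polyribosomal RNA).

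Within groups the 10 genes did not vary as 1 block. After removal of group means, the highest r over 16 libraries among the 45 pairs was 0.76 (Tubb3 and Gad1) and the lowest -0.62 (Gad1 and Robo2), with Stmn2 and Nrxn3 at 0.58. Over all libraries, where genotype enters, Stmn2 and Nrxn3 were at 0.90 and Stmn2 and Gad1 at 0.84. The libraries share cultures in pairs, and these r are descriptions. Among the mutant cultures, culture 3 was the highest for Stmn2, Nrxn3 and Gad1 in total RNA, while culture 1 was the highest for Dcx and Tubb3. Culture 3 also had the highest choroid plexus markers in total RNA, whose summed level was 1337 to 3571 in mutant and 944 to 1228 in wild-type cultures, and their part in these values was not tested.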

How the data were processed

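Total and polyribosomal RNA of 4 Tsc2 mutant and 4 wild-type V-SVZ NSC cultures was sequenced. The submitters' processing notes name STAR, DESeq2 and the mouse build mm10. The deposited signal values are read counts per gene that the authors divided by DESeq2 size factors, separately in each RNA fraction, so levels were not tested across fractions. Low values were near whole multiples of a library step (within 0.1) for 92.5 to 94.3% of values in total and 77.4 to 94.6% in polyribosomal RNA, so whole reads were not recovered and no count test was run. Of 24972 rows in each table, 26 held dates in place of gene symbols and were dropped.

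Values were tested as log2(value + 1), a scale that understates changes of low genes, with limma 3.58.1 (R 4.3.3; trend and robust moderation) for genes with a mean of at least 10, and p-values were adjusted over all genes by the Benjamini-Hochberg method. Translational efficiency was the interaction of genotype and fraction with culture as a block. Deviations of total and polyribosomal libraries of the same culture correlated (r 0.233 to 0.731), whereas same-numbered mutant and wild-type cultures did not (r -0.130 to 0.101), so numbers did not pair genotypes. The members and all gene lists were chosen with earlier results of these data known. The genes named were the 10 members, then called kin and list genes, and the 5 genes most correlated with Dcx. Some genes of the kin lists are not reported here by name. Exon lengths and positions came from GENCODE M21 (GRCm38). The fitting code was tested on simulated data. Alternatives changed the pseudocount (0.5 or 8), the filter (none or 50), the scaling (library total or trimmed mean of M values), the moderation, the block, the Y-linked covariate and the cultures included. Their effect is given with the closing observations.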

Additional observations from a re-analysis of the deposited data

Results flagged for a closer look

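Of 40 groups of 4 libraries (10 genes in 4 groups), 3 held a library far from the other 3 by Dixon's criterion at the 95% level for groups of 4, where chance gives about 1 in 20. Stmn2 in total RNA of wild-type culture 1 was 125.59, with the other wild-type cultures at 40.7 to 53.6. Cd24a in total RNA of mutant culture 1 was 12101.6, with the other mutant cultures at 8812 to 9325. Tubb3 in polyribosomal RNA of wild-type culture 1 was 2166.53, with the other wild-type cultures at 2797 to 2923.

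The genotype difference of Cd24a differed between polyribosomal and total RNA by 0.446205 on the log2 scale (adjusted p = 0.0333, limma interaction over 16 libraries), with the ratio higher in 4 of 4 mutant cultures than in any wild-type culture.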

How the results depend on the processing

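Stmn2 and Gad1 were called higher in both fractions and Nrxn3 in total RNA under every alternative run, except that the Y-linked covariate left none of the 10 called in polyribosomal RNA by limma (0, against 5 without it; 4 at an unadjusted p under 0.05). Over all genes, the number called with that covariate was 30 in polyribosomal RNA, against 3403 without it, and 1063 in total RNA, against 6035. In translational efficiency it was 0, against 1858 (2173 at an unadjusted p under 0.05 with the covariate, limma). Genotype and the Y-linked level cannot be fully told apart with these cultures. With mutant cultures 2 and 4, which had the most microglia markers, both left out, 5 of the 10 were called in total RNA, Dcx (0.75, adjusted p = 0.0386) and Tubb3 (0.65, adjusted p = 0.00842) being added, and 3 in translational efficiency. Mutant culture 4 was the lowest mutant culture for Dcx in total RNA, and mutant culture 2 the lowest for Tubb3. Leaving both out thus had to raise these changes, so the added calls say nothing about microglia. The share of all genes called in this setting is not given here. Leaving out 1 culture gave 3 to 4 calls in total RNA, 2 to 5 in polyribosomal RNA and 0 to 1 in translational efficiency. The number of all genes called moved in the same fits too. It was 4190 to 6648 in total RNA, 1888 to 4086 in polyribosomal RNA and 647 to 3282 in translational efficiency. The translational efficiency call of Cd24a was lost, leaving 0 of 10, with no filter, with plain moderation, with the Y-linked covariate and with no replicate block (2, 2, 1 and 0 genes at an unadjusted p under 0.05). The replicate block by number left 3 calls in total and 4 in polyribosomal RNA, where Nrxn3 had an adjusted p of 0.0799, but the numbers did not pair the genotypes. The share of all genes called with that block is not given here.

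The direction turned only for values that were not called. Map2 in polyribosomal RNA was 0.0062 with scaling to the library total, and its translational efficiency was -0.0700 without mutant cultures 2 and 4. Robo2 in polyribosomal RNA was -0.19 without mutant cultures 2 and 4, -0.0234 with the Y-linked covariate, and -0.0519 to 0.212 without 1 culture. Gad2 in translational efficiency was 0.0333 with pseudocount 8, 0.0255 with the library total, 0.00955 with the trimmed mean of M values, and -0.15 to 0.16 without 1 culture. Gad1 in translational efficiency was -0.197 to 0.0499 without 1 culture. The causes were not tested. Scaling to the library total moved the median of all genes to 0.11 in total and 0.13 in polyribosomal RNA, and the share of calls that were higher to 62.9%, 73.6% and 49.3% in total RNA, polyribosomal RNA and translational efficiency, against 48.8%, 49.7% and 39.1% as deposited. Dpysl3 was then not called in polyribosomal RNA. Gad2, Dcx and Stmn2 rested on the fewest reads, and no difference of theirs that missed the threshold shows equal levels.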
